A study of Mus musculus with 42 samples.

Results

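Lipoprotein lipase and 6 other genes of lipid uptake were followed in the left and right heart field of mouse embryos at the onset of heart looping. The 7 members, *Lpl*, *Gpihbp1*, *Angptl4*, *Vldlr*, *Cd36*, *Fabp3* and *Lipg*, were found by matching the Ensembl identifiers of the count table to gene symbols, and all 7 were present among its 56953 genes. *Lpl* was chosen by its right over left values in mutants with rightward looping, where it was higher on the left, so its values in that contrast, and those of the other members, are given as a description without a test. The other members were listed for their known function. Each library held the polyA RNA of the left or the right side of a dissected heart field, the progenitor tissue behind the heart tube, taken without the tube itself. All embryos were at stage E8.5i, when the heart tube tilts to one side. There were 5 wild types (Ccdc40+/+, 4 males and 1 female) with rightward looping, 11 homozygous mutants (Ccdc40lnks/lnks, 6 males and 5 females) with rightward looping and 5 homozygous mutants (3 males and 2 females) with inverted looping, and both sides of each of the 21 embryos were sequenced. *Ccdc40* encodes a component of motile cilia, and the lnks allele is a nonsense mutation that abolishes the leftward fluid flow at the node, the early organizer of left and right. The sample labels give genotype and looping direction, and no further division of the mutants by organ situs was used here. By the study's own classes, the rightward-looping mutants are a mixture of embryos with situs solitus and with heterotaxy, so their means describe both.

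In the embryo and the adult, lipids travel in lipoprotein particles, and lipoprotein lipase, the product of *Lpl*, releases fatty acids from their triglycerides. The enzyme is made by parenchymal cells such as muscle, is carried to the vessel lumen by GPIHBP1, a protein of capillary endothelium, and is inactivated by ANGPTL4, which fasting and hypoxia induce. The VLDL receptor binds triglyceride-rich particles, CD36 takes up long-chain fatty acids at the cell surface, FABP3 carries them inside heart and skeletal muscle cells, and endothelial lipase, the product of *Lipg*, acts mainly on phospholipids. *Lpl* is a well known gene of the differentiated heart, whose muscle burns fatty acids after birth.

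The promoters of *Angptl4* and *Fabp3*, the members with the lowest permutation p after *Lpl* for a difference of asymmetry between inverted-looping mutants and wild types, are shown as the sequence from 250 bases before to 30 bases after the annotated start of the main transcript, read from the mouse genome GRCm39. They are chr17:34000775-34001054 on the minus strand for *Angptl4* and chr4:130202138-130202417 on the plus strand for *Fabp3*. Capitals mark matches of 4 motifs, each spelled out with its result, searched on both strands.
Angptl4: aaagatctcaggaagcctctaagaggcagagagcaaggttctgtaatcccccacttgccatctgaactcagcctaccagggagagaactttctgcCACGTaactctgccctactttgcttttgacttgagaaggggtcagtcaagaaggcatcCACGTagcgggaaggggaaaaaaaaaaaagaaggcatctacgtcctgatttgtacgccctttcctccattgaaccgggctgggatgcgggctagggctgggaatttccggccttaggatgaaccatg
Fabp3: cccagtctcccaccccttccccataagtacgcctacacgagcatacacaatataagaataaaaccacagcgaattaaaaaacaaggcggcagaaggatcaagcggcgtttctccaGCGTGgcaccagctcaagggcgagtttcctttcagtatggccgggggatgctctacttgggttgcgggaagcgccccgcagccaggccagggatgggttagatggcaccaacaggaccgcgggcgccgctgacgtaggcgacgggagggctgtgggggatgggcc
In *Angptl4*, the capitals are ACGTG, the core of a hypoxia response element, read on the other strand from position -155 to -151 and from -97 to -93, the start being 1. This motif stood in 19.3% of 21664 promoters of the same length. In *Fabp3*, the capitals are GCGTG, another form of the hypoxia element, from -135 to -131, which 34.8% of promoters held. The core motif of PPAR receptors, AGGTCA, was in 14.2% of all promoters and in neither of these, nor was the CCAAT box (its name being its letters), which 38.9% of promoters held. The matches did not overlap.

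The libraries held between 36073684 and 62970327 counts, with a median of 43458644. The genotype was visible in *Ccdc40* itself, with an embryo mean of 20.6 ± 1.13 counts per 1000000 (CPM, SD, n = 5) in wild types, 12.2 ± 0.929 (n = 11) in rightward-looping mutants and 12.2 ± 0.918 (n = 5) in inverted-looping mutants. The sides were visible in *Lefty2*, a signalling inhibitor of the left side, which was higher on the left in 4 of 5 wild types and 11 of 11 rightward-looping mutants and higher on the right in 5 of 5 inverted-looping mutants. It had mean log2 ratios of right over left of -1.49 ± 1.15, -2.34 ± 1.9 and 3.75 ± 1.87 (SD) in wild types, rightward-looping and inverted-looping mutants. Its counts were low, at 4 to 114 per library in wild types. They ran from 0 to 682 in rightward-looping and from 4 to 1790 in inverted-looping mutants, so single embryos weigh on the means. None of 12 heart field markers, such as *Isl1* and *Tbx5*, was at 0, and their summed level was 404 to 1340 CPM per library. Heart muscle markers were present too, at 352 to 6090 CPM in sum, as were markers of visceral endoderm, at 36.8 to 1740 CPM. In such bulk samples, fewer cells of a type and less RNA per cell cannot be told apart.

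*Lpl* (ENSMUSG00000015568, chromosome 8, 69284603 to 69360100) was higher on the left in rightward looping and higher on the right in inverted looping. CPM were computed from library sizes scaled by the TMM method. In the wild types 7_1, 8_1, 10_1, 17_7 and 22_4, the left sides held 24.0, 31.6, 31.9, 27.1 and 23.8 CPM, and the right sides of the same embryos held 13.8, 18.0, 23.1, 22.4 and 24.4 CPM. The left was higher in 4 of 5 wild types, and embryo 22_4 had nearly equal sides. The log2 fold change of right over left was -0.47 with a standard error (SE) of 0.14, and with a p of 0.00943 it did not pass the adjustment over all genes (adjusted p = 1, quasi-likelihood test of edgeR, adjusted by Benjamini-Hochberg). Among the 23182 genes tested in wild types, 0% were called by edgeR, although 639 had an unadjusted p under 0.05, and DESeq2 called 20 genes and no member. Of the genes with a mean of at least 1 CPM, 2.3% were higher on the left in all 5 wild types. *Lpl*, with 4 of 5, was not among these, and the share with at least 4 of 5 was not computed.

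In the 11 rightward-looping mutants, which chose the gene, *Lpl* ranged from 20.5 to 43.1 CPM (median 28.2) in left and from 12.8 to 32.2 CPM (median 22.3) in right samples. The left was higher in 11 of 11 embryos, and the log2 ratio of right over left ranged from -0.69 to -0.09 with a mean of -0.41 ± 0.20 (SD). Although the levels on both sides overlapped between embryos, the sides were ordered alike within each. The fitted log2 fold change was -0.42 (SE 0.06). For reference, 0.0263% of the 22795 genes were called in that contrast, and 14 of 15243 genes with a mean of at least 1 CPM, or 0.0918%, were higher on the left in all 11 embryos.

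In the inverted-looping mutants 2_7, 4_6, 10_3, 18_2 and 32_2, the left sides held 20.0, 19.9, 16.2, 16.8 and 18.0 CPM of *Lpl*, and the right sides held 24.3, 32.0, 25.4, 31.4 and 27.9 CPM. Every right value was above every left value, with a log2 ratio of right over left between 0.28 and 0.91 in the 5 embryos. The fitted log2 fold change was 0.64 (SE 0.09, adjusted p = 0.0151, edgeR), one of 468 calls among 22960 genes (2.04%), with 1.72% of the genes tested called higher and 0.318% called lower on the right. Of all genes with a mean of at least 1 CPM, 9.7% were higher on the right in each of these 5 embryos. The call of *Lpl* was lost in males alone (0.75, adjusted p = 0.0934, edgeR) and when 1 of 3 embryos was left out, with an adjusted p of 0.059 without embryo 4_6, 0.0553 without 18_2 and 0.0828 without 32_2, while the log2 fold change stayed between 0.56 and 0.73 over the 5 omissions.

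The asymmetry of *Lpl* differed between inverted-looping mutants and wild types by 1.09 on the log2 scale (SE 0.15, adjusted p = 0.00233, edgeR, interaction of side and group with the embryo as a block). That fit held all 42 libraries. The rightward-looping mutants, which chose *Lpl*, thus shared in its dispersion, and its SE and p are not independent of that choice. The ratios of the groups did not overlap, being at most 0.04 in wild types and at least 0.28 in inverted-looping mutants, and the exact two-sided permutation test over the 5 and 5 embryos gave p = 0.00794, the smallest that it can give. Among all 26335 genes tested, 0.513% were called in this difference, 0.456% higher and 0.057% lower in inverted-looping mutants. Of genes with a mean of at least 1 CPM, 2.6% had ratios that did not overlap, and 1.66% had them higher in inverted-looping mutants. *Lpl* was called in each of 10 fits with 1 embryo left out, with an adjusted p of at most 0.0104. It was not called among males alone (log2 difference 1.13, adjusted p = 0.0916, edgeR) or without the embryo block (1.08, adjusted p = 0.204, edgeR). The males were 4 wild types and 3 inverted-looping mutants, fitted beside those of the rightward-looping mutants.

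**Figure D1:**
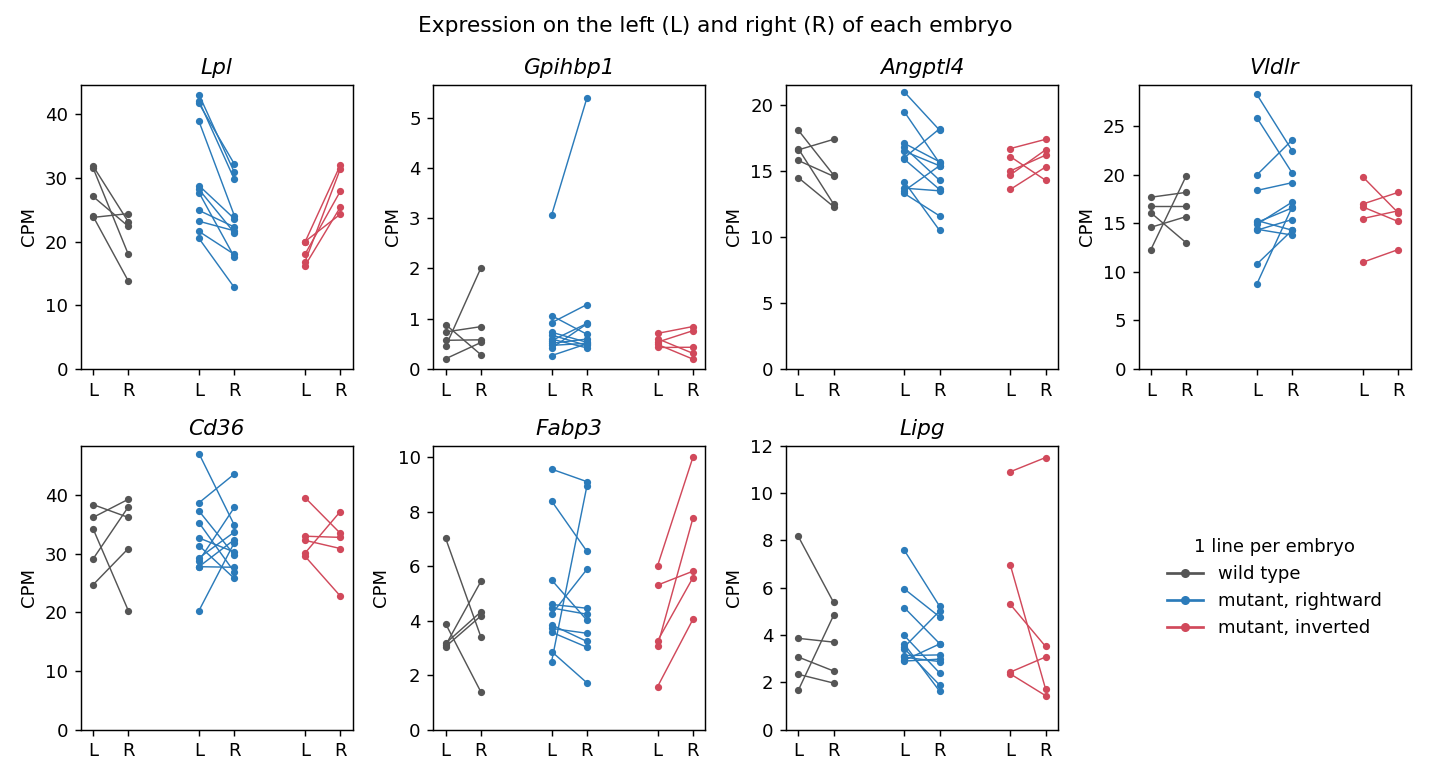
Level of each member in CPM on the left (L) and right (R) side of the heart field, with 1 line per embryo, in wild types (grey), mutants with rightward looping (blue) and mutants with inverted looping (red). All 11 blue lines of *Lpl* fall from left to right and all 5 red lines rise, whereas the lines of *Cd36* and *Vldlr* cross within every group.

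The difference of *Lpl* between groups had opposite signs on the left and on the right, and edgeR called neither. On the left, *Lpl* was lower in inverted-looping mutants than in wild types by a log2 fold change of -0.66 (SE 0.18), with a p of 0.00113 and an adjusted p of 0.342 by edgeR and an adjusted p of 0.0424 by DESeq2. The left sides ran from 16.2 to 20.0 CPM in inverted-looping mutants and from 23.8 to 31.9 CPM in wild types. The share of all genes with ranges apart on the left was not computed. On the right, the log2 fold change was 0.44 (SE 0.2, p = 0.0381, adjusted p = 0.83, edgeR), and one wild-type value of 24.4 CPM lay above the lowest inverted-looping value of 24.3 CPM. In the sum of both sides, *Lpl* in rightward-looping mutants differed from wild types by 0.11 (SE 0.15, adjusted p = 0.988, edgeR) and in inverted-looping from rightward-looping mutants by -0.21 (SE 0.15, adjusted p = 1, edgeR). Embryo means were 24.0 ± 3.15 CPM in wild types, 27.1 ± 7.17 in rightward-looping and 23.2 ± 1.96 in inverted-looping mutants (SD).

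*Gpihbp1* (ENSMUSG00000022579, chromosome 15, 75468474 to 75471331), the endothelial anchor of the lipase, was the scarcest member with a mean count of 35.7 per library. It ranged from 0.202 to 2.01 CPM in wild types and from 0.195 to 0.843 CPM in inverted-looping mutants. The right was higher in 4 of 5 wild types, 7 of 11 rightward-looping mutants and 3 of 5 inverted-looping mutants, so no group had 1 direction. The log2 fold change of right over left was 0.41 (SE 0.52) in wild types, 0.21 (SE 0.19) in rightward-looping mutants and -0.21 (SE 0.33) in inverted-looping mutants, and the difference between inverted-looping mutants and wild types was -0.63 (SE 0.55, adjusted p = 0.681, edgeR), which ran from -1.12 without 17_7 to -0.15 without 22_4. The wild types spread widely, with an SD of the log2 ratio of 1.35. Markers of endothelium were far more abundant, with sums of 566 to 810 CPM in wild types and 608 to 767 CPM in inverted-looping mutants.

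*Angptl4* (ENSMUSG00000002289, chromosome 17, 33992724 to 34000804, minus strand), the secreted inhibitor of the lipase, varied little. In wild types, in the same order of embryos, the left sides held 18.1, 14.5, 16.6, 16.7 and 15.8 CPM and the right sides 14.7, 12.3, 17.4, 12.5 and 14.6 CPM, with the left higher in 4 of 5. In inverted-looping mutants the left sides held 15.0, 16.7, 13.6, 16.1 and 14.7 CPM and the right sides 16.2, 17.4, 15.3, 14.3 and 16.6 CPM, with the right higher in 4 of 5. These majorities had the directions of *Lpl*, at a smaller size and with overlapping sides. Neither passed the edgeR test, with an unadjusted p of 0.0795 in wild types and 0.387 in inverted-looping mutants. The share of all genes with such majorities was not computed. The left was also higher in 9 of 11 rightward-looping mutants. The fitted log2 fold changes were -0.2 (SE 0.1) in wild types, -0.14 (SE 0.06) in rightward-looping mutants and 0.08 (SE 0.09) in inverted-looping mutants. The difference between inverted-looping mutants and wild types was 0.27 (SE 0.12), which did not pass the adjustment (adjusted p = 0.343, edgeR) and had an exact permutation p of 0.0476 before any adjustment over the 7 members.

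*Vldlr* (ENSMUSG00000024924, chromosome 19, 27193862 to 27231631) and *Cd36* (ENSMUSG00000002944, chromosome 5, 17986432 to 18094067, minus strand), the receptor of lipoprotein particles and the fatty acid transporter, had no common direction in any group. *Vldlr* ranged from 8.75 to 28.3 CPM over all libraries, and its log2 fold change of right over left was 0.1 in wild types (SE 0.14), 0.1 in rightward-looping mutants (SE 0.1) and -0.01 in inverted-looping mutants (SE 0.1). *Cd36* ranged from 20.3 to 47.1 CPM, with log2 fold changes of -0.01 (SE 0.16), 0 (SE 0.09) and -0.07 (SE 0.1) in the same order. In the difference between inverted-looping mutants and wild types, *Vldlr* had -0.12 (SE 0.2, adjusted p = 0.841, edgeR) and *Cd36* -0.08 (SE 0.21, adjusted p = 0.923, edgeR). Both are deeply counted, with mean counts of 745.9 and 1448.6 per library. Neither passed the test.

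*Fabp3* (ENSMUSG00000028773, chromosome 4, 130202388 to 130209259), the fatty acid carrier of muscle, was higher on the right in all 5 inverted-looping mutants. Their left sides held 5.31, 6.02, 1.58, 3.26 and 3.08 CPM and their right sides 5.82, 10.0, 4.05, 5.58 and 7.76 CPM. The log2 ratio was between 0.13 and 1.34, so every embryo had the same direction although the sides overlapped between embryos. The fitted log2 fold change of 0.86 (SE 0.19) exceeded that of *Lpl*, and its adjusted p was 0.0703 by edgeR. *Fabp3* was called by DESeq2 (adjusted p = 0.000232), by edgeR without a filter on low counts (0.0145) and by edgeR without embryo 2_7 (0.0357).

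Wild types did not share a direction for *Fabp3*. Their left sides held 3.05, 7.03, 3.89, 3.17 and 3.1 CPM and their right sides 4.18, 3.4, 1.38, 4.33 and 5.45 CPM, with the right higher in 3 of 5. The log2 fold change was -0.15 (SE 0.36) and turned positive among males alone, at 0.10. Rightward-looping mutants had the left higher in 9 of 11 embryos, but embryo 19_4 had a left level of 2.5 CPM and a right level of 8.95 CPM, and the fitted log2 fold change was -0.01 (SE 0.18). The difference of asymmetry between inverted-looping mutants and wild types was 0.99 (SE 0.43, adjusted p = 0.315, edgeR), with an exact permutation p of 0.0952. *Fabp3* overlaps 2 genes on the other strand, *Zcchc17* and *Gm10570*, the first of which had a mean count of 4937.1 against 209.6 for *Fabp3*. The use of strand in the counting is not given in the sources used here, so the counts of *Fabp3* are uncertain.

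*Lipg* (ENSMUSG00000053846, chromosome 18, 75072393 to 75094339, minus strand), the endothelial lipase, varied more between embryos than between sides. Inverted-looping mutants held 2.36 to 10.9 CPM in left and 1.44 to 11.5 CPM in right samples, both highest values coming from embryo 10_3. The log2 fold change of right over left was 0.03 (SE 0.3) in wild types, -0.3 (SE 0.14) in rightward-looping mutants and -0.55 (SE 0.31) in inverted-looping mutants, and the last value ran from -0.78 without embryo 18_2 to -0.21 without 32_2. The difference between inverted-looping mutants and wild types was -0.6 (SE 0.41, adjusted p = 0.576, edgeR), and ran from -0.81 to -0.24 with an embryo left out, the values nearest 0 being those without 32_2 (-0.24) and 10_1 (-0.25). The left was higher in 4 of 5 wild types, 7 of 11 rightward-looping mutants and 3 of 5 inverted-looping mutants.

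**Figure D2:**
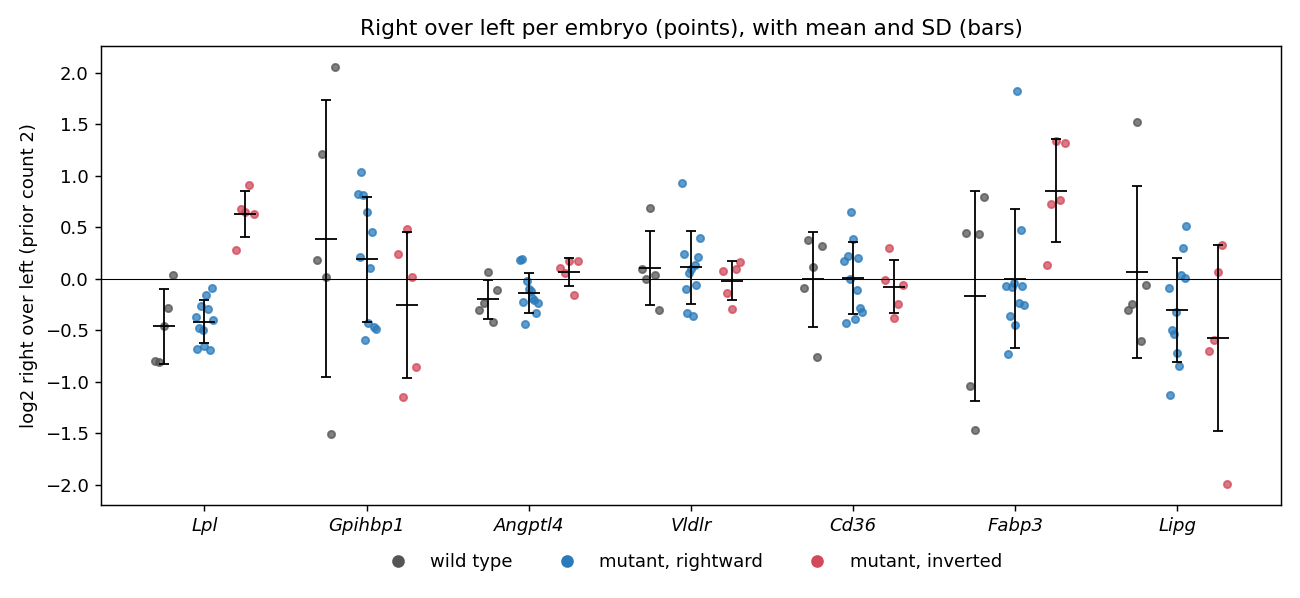
Log2 ratio of right over left for each member and embryo (points, prior count of 2), with the mean and SD of each group (bars), in wild types (grey), rightward-looping mutants (blue) and inverted-looping mutants (red). The red points of *Lpl* lie at 0.28 or more and the grey ones at 0.04 or less, while the groups of the other 6 members overlap.

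Over the 7 members, the median log2 fold change of right over left was -0.01 in wild types, -0.01 in rightward-looping mutants and -0.01 in inverted-looping mutants, against 0.002, -0.004 and -0.005 for all genes tested. In inverted-looping mutants 3 members had a positive and 4 a negative value. By edgeR, *Lpl* was the 1 member of 7 called in inverted-looping mutants and in the difference from wild types, and no member was called in the other comparisons tested. DESeq2 also called *Fabp3* in inverted-looping mutants, as one of 1755 genes against 468 by edgeR, and *Lpl* in the left level against wild types, as one of 78 genes against 7 by edgeR. All 7 members passed the filter on low counts in each comparison.

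Levels between the members were compared per length of the main annotated transcript. Over the 21 embryos, *Cd36* stood highest with 9.24 ± 1.27 CPM per kilobase (SD, n = 21), above *Lpl* with 6.18 ± 1.37 in 19 of 21 embryos. *Lpl* and *Fabp3*, with 5.77 ± 2.16, could not be ordered, as *Lpl* was higher in 12 of 21 embryos. *Fabp3* exceeded *Angptl4*, with 4.67 ± 0.527, in 15 of 21 embryos, and *Angptl4* exceeded *Vldlr*, with 2.02 ± 0.414, in 21 of 21. *Lipg* with 1.06 ± 0.549 and *Gpihbp1* with 0.969 ± 0.983 came last, and *Lipg* was higher than *Gpihbp1* in 14 of 21 embryos. When the length of all annotated exons was used in place of the main transcript, *Angptl4* stood first with 3.43 CPM per kilobase, before *Cd36* with 2.57 and *Lpl* with 2.08, and *Fabp3*, with 0.897, fell below *Angptl4* and *Vldlr*, with 1.64, so the order depends on the length used.

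No member passed the edgeR test for a difference of level between groups of embryos. In rightward-looping mutants against wild types, with both sides summed, log2 fold changes ran from -0.04 for *Cd36* to 0.56 for *Gpihbp1* (SE 0.46), and edgeR called no member among 27606 genes, of which it called 0.0254%. The value of *Gpihbp1* rested on embryo 15_5, with 3.06 and 5.39 CPM on its sides, and was -0.14 without it, an omission chosen after its values were seen. On the left, inverted-looping mutants against wild types, 0.0282% of 24838 genes were called by edgeR and no member was (DESeq2 called *Lpl*), the furthest from 0 being *Lpl* and *Lipg*, at -0.66 and 0.66 (SE 0.41, adjusted p = 0.78 for *Lipg*, edgeR). On the right, *Fabp3* had the largest value of 0.71 (SE 0.37, adjusted p = 0.843, edgeR), and 0% of 24859 genes were called by edgeR, against 17 by DESeq2 and 1474 at an unadjusted p under 0.05. Between inverted-looping and rightward-looping mutants, edgeR and DESeq2 both called 0 genes (0% of 27606, with 886 at an unadjusted p under 0.05 by edgeR), and the members ran from -0.77 for *Gpihbp1* (SE 0.47), or -0.28 without embryo 15_5, to 0.28 for *Lipg* (SE 0.29).

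**Figure D3:**
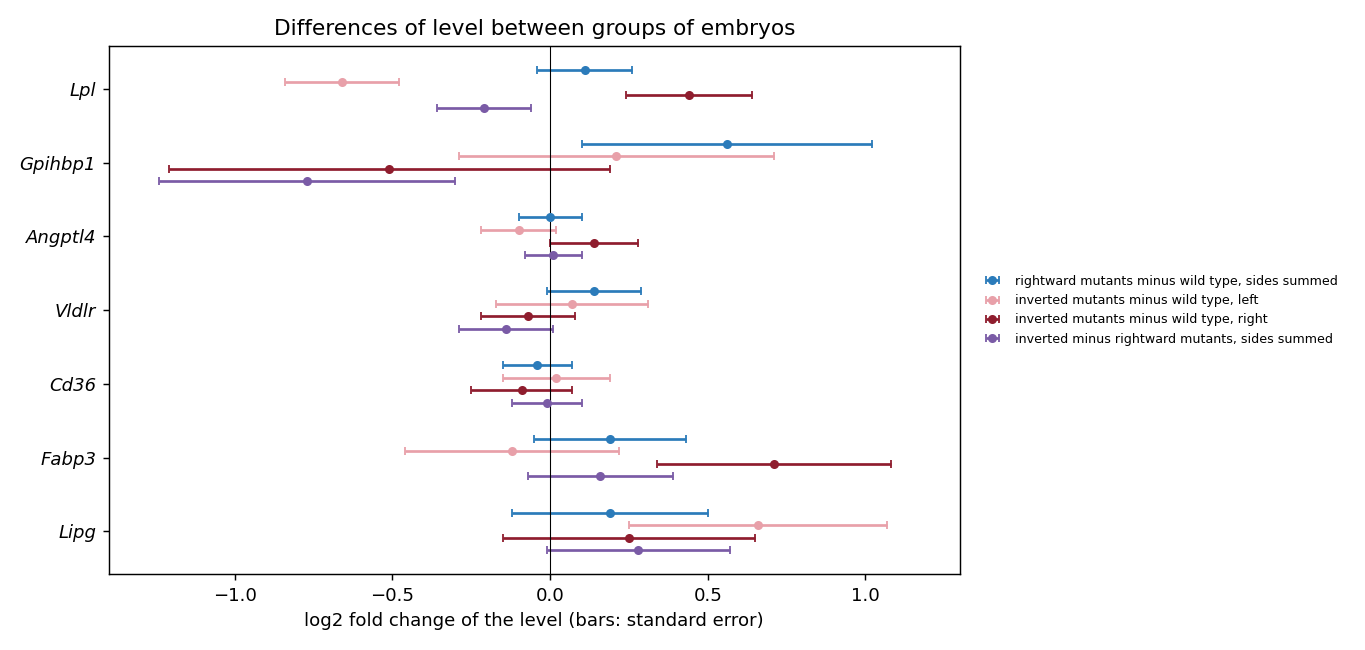
Log2 fold change of the level of each member between groups of embryos (points, with standard errors as bars), for both sides summed and for the left and right sides alone. For *Lpl* the left sides of inverted-looping mutants lie at -0.66 and the right sides at 0.44, and values of *Angptl4* and *Cd36* stay near 0.

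Other genes of the pathway were described from lists. Of the partners and inhibitors of the lipase, such as its folding factors, apolipoproteins and processing proteases, 15 of 16 were tested in inverted-looping mutants. There edgeR called 2 of them higher on the right, beside 1.72% of all genes tested. *Hspg2*, which encodes the heparan sulfate proteoglycan perlecan, had a log2 fold change of 0.42 (SE 0.07, adjusted p = 0.0193, edgeR), and *Furin*, a protease that can cleave the lipase and its inhibitors, had 0.50 (SE 0.09, adjusted p = 0.0324, edgeR). The call of *Hspg2* was lost without embryo 18_2 (adjusted p = 0.0596, edgeR) or 32_2 (0.106), and that of *Furin* without any one of 4_6, 10_3, 18_2 and 32_2 (0.0745 to 0.133). Both were also lost in males alone and in one fit of all libraries. The median of the list was 0.26, against -0.005 for all genes. In the difference from wild types, no gene of the list was called, and *Hspg2* had 0.37 (adjusted p = 0.327, edgeR) and *Furin* 0.63 (adjusted p = 0.157, edgeR). None of 10 lipoprotein receptors was called by edgeR in inverted-looping mutants or in the difference, where 2.04% and 0.513% of all genes were. Their medians were 0.17 and 0.15, against -0.005 and -0.022 for all genes, with 9 and 7 of 10 above 0. An unadjusted p under 0.05 (edgeR) was held by 6 and 5 of the 10, beside 3468 of 22960 and 3569 of 26335 genes.

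Among 17 fatty acid transporters, binding proteins and acyl-CoA synthetases, *Acsl1*, which activates long-chain fatty acids, was the one gene called. Its log2 fold change of right over left was 0.59 (SE 0.11, adjusted p = 0.0384, edgeR) in inverted-looping mutants, and it differed from wild types by 0.78 (SE 0.15, adjusted p = 0.0188, edgeR). The first call was lost without any one of embryos 4_6, 10_3, 18_2 and 32_2 (adjusted p of 0.0816 to 0.168, edgeR) and in males alone (0.137), and the second without 10_1, 18_2 or 32_2 (0.06 to 0.0687). The median of the list was 0.01 in inverted-looping mutants and 0.22 in the difference. Of 8 PPAR receptors and partners, *Ppargc1a*, a coactivator of mitochondrial genes, was called, with 1.03 (SE 0.13, adjusted p = 0.0101, edgeR) in inverted-looping mutants and a difference of 1.37 (SE 0.31, adjusted p = 0.0416, edgeR). The former was called in all 5 fits with an embryo left out but not in males alone (adjusted p = 0.137, edgeR) or without the embryo block (0.0754), and the latter was lost in 7 of 10, those without 7_1, 8_1, 10_1, 4_6, 10_3, 18_2 or 32_2 (adjusted p of 0.052 to 0.154, edgeR), and with library size alone as scaling (0.0575). The receptors *Ppara*, *Ppard* and *Pparg* had -0.63 (SE 0.44), -0.07 (SE 0.1) and 0.69 (SE 0.52) in inverted-looping mutants and were not called. Of 13 lipid storage genes, the lipid droplet protein gene *Plin3* was called in the difference (0.43, SE 0.08, adjusted p = 0.0182, edgeR) and none in inverted-looping mutants. The call of *Plin3* was lost without 10_1, 18_2 or 32_2 (adjusted p of 0.06 to 0.0631, edgeR). Without the embryo block or in males alone, none of the differences of *Acsl1*, *Ppargc1a* and *Plin3* was called. Of all genes tested, edgeR called 1.72% higher on the right in inverted-looping mutants and 0.456% higher in the difference.

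Most genes of fatty acid oxidation had the sign of *Lpl*, as did those of other lists. In inverted-looping mutants, 9 of 10 lipoprotein receptors, 10 of 12 lipid storage genes and 11 of 15 lipase partners and inhibitors were above 0. So were 8 of 15 genes of the list with *Acsl1* and 4 of 8 PPAR genes. Of the oxidation genes, 16 of 17 were above 0 there, with a median of 0.2 against -0.005 for all genes. Of these 17, 2 were called, beside 1.72% of all genes tested called higher (edgeR). The called genes were *Etfa*, a subunit of the electron transfer flavoprotein (0.38, SE 0.05, adjusted p = 0.012, edgeR), and *Acaa2*, the thiolase of the last step (0.39, SE 0.07, adjusted p = 0.0342, edgeR). The call of *Etfa* was lost without embryo 32_2 (adjusted p = 0.0558, edgeR) and that of *Acaa2* without any one of 4_6, 10_3, 18_2 and 32_2 (0.0826 to 0.134). In males alone neither was called (0.13 and 0.137), and without the embryo block *Acaa2* was not (0.0631). In wild types 1 of 17 was above 0, none was called and the median was -0.1. In the difference between both groups 17 of 17 were above 0, with a median of 0.29 against -0.022 for all genes, and 5 were called, a share to be read beside the 0.456% of all genes called higher. The 5 were *Cpt1b*, the muscle form of the enzyme that admits fatty acids to mitochondria (2.42, SE 0.49, adjusted p = 0.0231, edgeR), *Acaa2* (0.64, SE 0.12, adjusted p = 0.0165, edgeR), *Etfa* (0.57, SE 0.1, adjusted p = 0.0123, edgeR), the carnitine carrier gene *Slc25a20* (0.45, SE 0.09, adjusted p = 0.0188, edgeR) and *Acadm*, a dehydrogenase of medium-chain fatty acids (0.37, SE 0.07, adjusted p = 0.0182, edgeR). *Acadm* was named after its values were seen. *Cpt1b* was also not called without 8_1, 10_1, 4_6 or 18_2 (adjusted p of 0.0577 to 0.0774, edgeR) and *Slc25a20* without 8_1, 10_1 or 18_2 (0.0595 to 0.0646). In the difference, no gene of this list was called when embryo 32_2 was left out, when males alone were tested or without the embryo block, and 16 or 17 of 17 were above 0 under every alternative. In rightward-looping mutants none was called, 4 of 17 were above 0 and the median was -0.04.

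**Figure D4:**
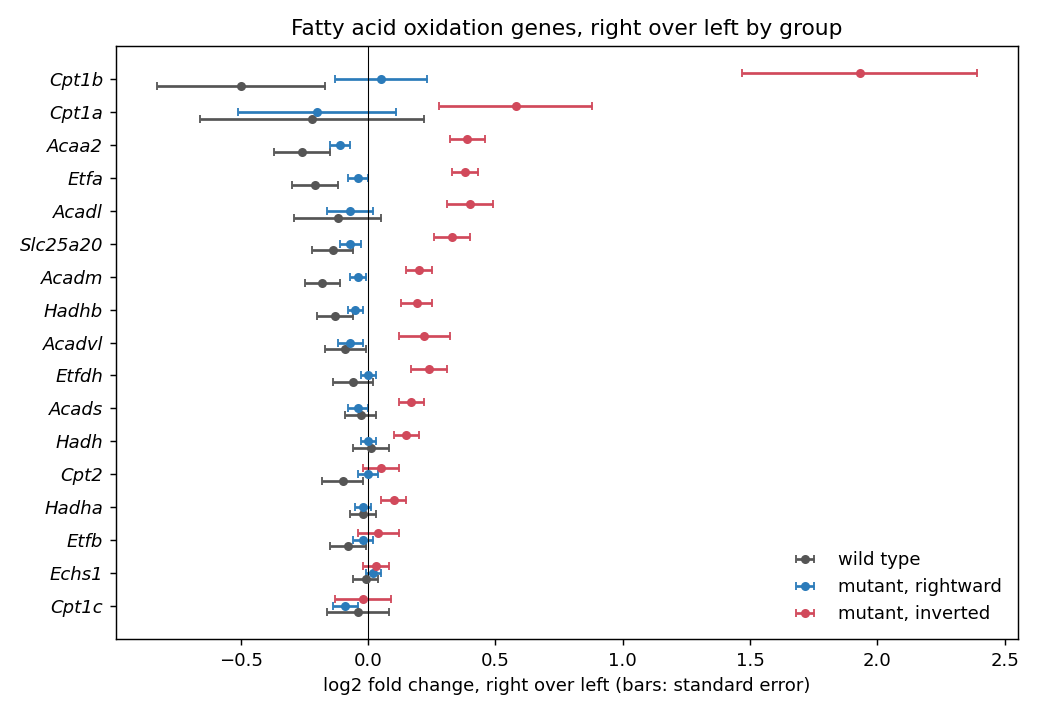
Log2 fold change of right over left for 17 genes of fatty acid oxidation (points, with standard errors as bars) in wild types (grey), rightward-looping mutants (blue) and inverted-looping mutants (red). In inverted-looping mutants 16 of 17 genes lie above 0, in wild types 1 of 17, and *Cpt1b* is furthest to the right.

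Markers of several cell types differed between the sides too. The summed level of 12 heart muscle markers was higher on the right in all 5 inverted-looping mutants, with a mean log2 ratio of 1.07 ± 0.29 (SD) and a range of 0.67 to 1.43, and 10 of 12 genes, among them *Actn2*, *Ttn* and *Tnnt2* (chosen after their values were seen), were called higher on the right. Of all genes tested in that contrast, edgeR called 1.72% higher on the right. The sum of the muscle markers ran from 1410 to 2750 CPM in left and from 2690 to 5740 CPM in right samples. In wild types the same ratio ran from -1.65 to 1.03 with a mean of -0.08, and in rightward-looping mutants from -1.81 to 1.38 with a mean of -0.01, so the muscle markers had no common direction there. In the difference between inverted-looping mutants and wild types edgeR called none of the 12 muscle markers, although 11 of 12 were above 0 and 8 had an unadjusted p under 0.05, and their median was 1.15. None was at 0 in any group. Their part in the asymmetry of *Lpl*, of *Fabp3* and of the oxidation genes in inverted-looping mutants was not tested.

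The sum of heart field markers was higher on the right in 5 of 5 inverted-looping mutants, with a mean log2 ratio of 0.49 ± 0.19 and 5 of 12 genes called, against -0.12 ± 0.7 in wild types. Markers of the septum transversum and proepicardium had 0.62 ± 0.37 (5 of 5 embryos, with *Mab21l2* and *Bmp4* called among 8 genes) and -0.49 ± 0.59, foregut endoderm 0.48 ± 0.35 (4 of 5 embryos, *Hhex* called among 10) and -0.28 ± 0.52, and visceral endoderm 0.87 ± 2.19 (none of 12 called) and -1.0 ± 2.01, in the same order of groups. Endothelium had 0.15 ± 0.1 (5 of 5 embryos) and -0.1 ± 0.3. Of its 12 markers, *Tek* was called in the difference (0.9, SE 0.17, adjusted p = 0.0165, edgeR). Visceral endoderm, whose cells secrete lipoproteins, varied most between embryos, from -1.14 to 4.4 in inverted-looping mutants. Its sum was higher on the right in 3 of 5 of them. Over all genes tested, edgeR called 1.72% higher on the right in inverted-looping mutants and 0.456% higher in the difference. The part of these tissues in the results was not tested.

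**Figure D5:**
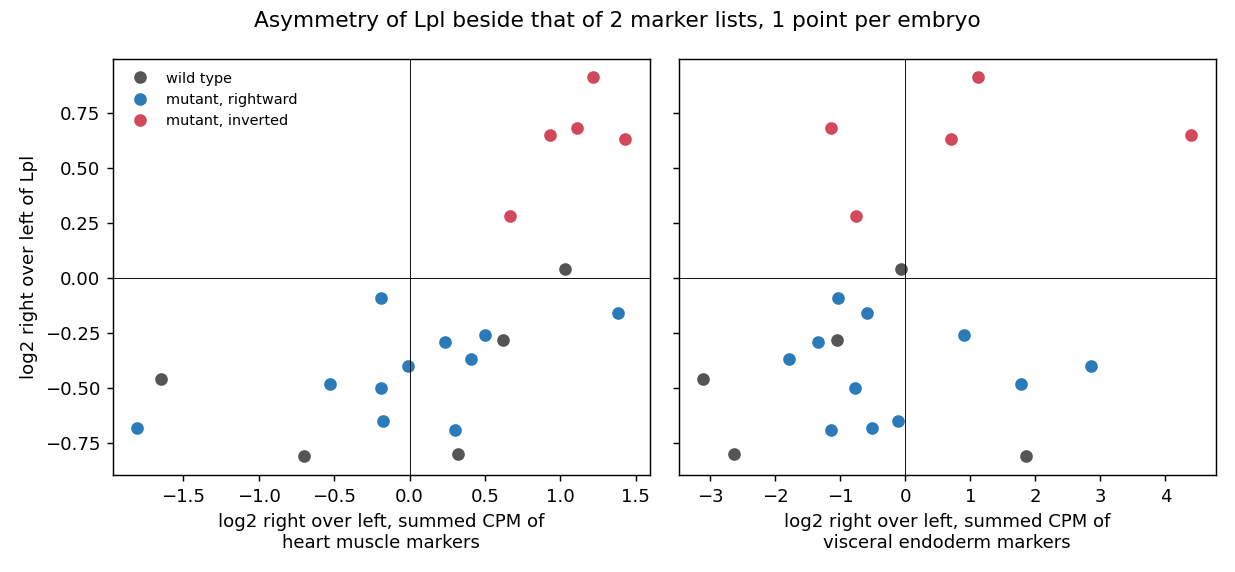
Log2 ratio of right over left of *Lpl* per embryo against that of the summed CPM of 12 heart muscle markers (left panel) and 12 visceral endoderm markers (right panel), in wild types (grey), rightward-looping mutants (blue) and inverted-looping mutants (red). Inverted-looping mutants lie at 0.67 to 1.43 for heart muscle and at -1.14 to 4.4 for visceral endoderm. The muscle ratios of wild types and of rightward-looping mutants lie on either side of 0.

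Among the genes whose log2 ratio of right over left followed that of *Lpl* most closely over the 21 embryos were *Nptx2*, *Dcaf12l1*, *Ddc* and *Rbpms2*, none of which was in a list of lipid genes. Among 11214 genes with a mean of at least 5 CPM, in which they were ranked, Pearson's r was 0.92 for *Nptx2*, 0.91 for *Dcaf12l1*, 0.91 for *Ddc* and 0.91 for *Rbpms2*. The embryos fall into groups with opposite looping, which these values share, so they describe the pattern and carry no p. *Angptl4* had an r of 0.34 and rank 2291, *Cd36* -0.22 and *Vldlr* -0.24, and the other members were below 5 CPM. Over the log2 CPM of the 42 libraries, the closest genes were *Dpysl3* (0.80), *Ddc* (0.76), *Dcaf12l1* (0.76), *Gucy1a1* (0.75) and *Tmem38a* (0.74), while *Angptl4* had 0.27, *Cd36* -0.15 and *Vldlr* -0.35. The mean log2 ratio of *Nptx2* was -0.77 in wild types, -0.85 in rightward-looping and 1.54 in inverted-looping mutants, beside -0.46, -0.41 and 0.63 for *Lpl*, which had the same signs at a smaller size.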

How the data were processed

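Raw read counts per gene for 42 libraries of 21 embryos were deposited by the authors, who prepared libraries from 10 ng of RNA with a low-input polyA kit, removed duplicates, aligned reads with STAR to GRCm39 and counted them with featureCounts of Subread 2.0.6. The annotation release and the use of strand in the featureCounts step are not given in the sources used here. The study names a release only for its isoform and variant analyses of these libraries. Identifiers were matched to GENCODE symbols (56310 of 56953). Genes were filtered with filterByExpr, at 5 counts per library at the median depth and a total of 10. As many libraries as the smallest group held had to reach that level. The settings min.prop of 0.2 and large.n of 50 act only on groups above 50 libraries, and none was as large. Genes were tested with edgeR 4.0.16 (TMM, quasi-likelihood, Benjamini-Hochberg over all genes, threshold 0.05). Right was compared with left with the embryo, given in the titles, as a block, and levels were compared with sex as a covariate. Differences of asymmetry and of level were fitted with all groups of embryos, which shared the dispersion. Both sides of an embryo deviated together (median residual correlation 0.31 against -0.04 between embryos). DESeq2 1.42.0, other scalings, no filter, no block, males alone and omitted wild types or inverted-looping mutants were alternatives. Log2 ratios per embryo used CPM with a prior count of 2, and single members were tested by exact two-sided permutation. The fits were tested on simulated counts. Every pair of libraries differed beyond sampling noise (lowest chi-square per gene 9.27). The members, gene lists and tests were chosen with earlier results of these data known. All 7 members were named, with called genes of the pathway lists (at most 4 per list and comparison by size of change), genes among the 5 most like *Lpl* by each measure, and *Ccdc40* and *Lefty2* as checks. Some results of this rule are not reported here.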

Additional observations from a re-analysis of the deposited data

Results flagged for a closer look

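Among 42 sets of 5 embryos, 2 held a value farther from the rest than Dixon's criterion allows, and chance gives about 1 in 20. In the left samples of wild types, *Fabp3* in embryo 8_1 stood at a log2 CPM of 2.82, against 1.63 to 1.97 in the other 4. Among the ratios of right over left of *Lipg* in wild types, embryo 10_1 had 1.52, against -0.6 to -0.06 in the others, from counts of 67 on the left and 200 on the right. The asymmetry of *Lpl* differed between inverted-looping mutants and wild types by 1.09 on the log2 scale, by the interaction test given above.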

How the results depend on the processing

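In inverted-looping mutants the log2 fold change of *Lpl* was 0.75 (adjusted p = 0.0934, edgeR) in males only, and 0.56 to 0.73 with an embryo left out. The adjusted p ran from 0.0122 to 0.0828 with an embryo left out and from 6.32e-09 to 0.0934 under other settings. The difference from wild types was 1.08 (adjusted p = 0.204, edgeR) with no replicate block and 1.13 (adjusted p = 0.0916, edgeR) in males only, and 1.02 to 1.23 with an embryo left out. The left level was -0.66 (adjusted p = 0.0424) with DESeq2. With both sides summed, which is another quantity than the level of one side, *Lpl* had -0.09. Members called in inverted-looping mutants numbered 2 with DESeq2, 2 with no filter, 0 in males only and 0 to 2 with an embryo left out. In the difference they numbered 0 with no replicate block and 0 in males only, and on the left 1 with DESeq2. The block changed no other call of a member. The causes of these changes were not tested. Fits of males alone or with an embryo left out also held fewer embryos.

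The number of genes called in wild types, 0 by the edgeR test, was 20 with DESeq2, 2 with no filter and 1 in one fit of all libraries. In inverted-looping mutants, 468 became 1755 with DESeq2, 942 with no filter, 305 with no replicate block, 53 in males only, 141 in one fit and 138 to 446 with an embryo left out. In rightward-looping mutants, 6 became 32 with DESeq2, 1 with no replicate block and 1 in males only. In the difference, 135 became 911 with DESeq2, 207 with no filter, 7 with no replicate block, 3 in males only and 17 to 641 with an embryo left out. Levels in rightward-looping mutants against wild types gave 7, which became 17 with DESeq2 and 1 to 14 with a wild type left out. On the left, 7 became 78 with DESeq2, 3 with no sex term, 1 with both sides summed and 2 to 9 with an embryo left out. On the right, 0 became 17 with DESeq2 and 1 with both sides summed. Oxidation genes called were 9 with DESeq2, 4 with no filter, 1 with no replicate block, 0 in males only, 4 in one fit and 0 to 4 with an embryo left out in inverted-looping mutants, and 0 to 8 with an embryo left out in the difference.

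Several values of members that were not called changed sign. In wild types, *Cd36* was 0.01 and *Lipg* -0.07 with no replicate block and *Fabp3* 0.10 in males only. On the left, *Gpihbp1* was -0.05 with no sex term. The sum of both sides, which mixes in the right and so does not bear on the stability of the left level, gave -0.22 for *Gpihbp1*, 0.01 for *Angptl4*, -0.05 for *Cd36* and 0.35 for *Fabp3*. With an embryo left out, wild-type values ran from -0.05 to 0.91 for *Gpihbp1*, -0.04 to 0.20 for *Vldlr*, -0.11 to 0.17 for *Cd36*, -0.40 to 0.17 for *Fabp3* and -0.31 to 0.20 for *Lipg*. In inverted-looping mutants they ran from -0.41 to 0.01 for *Gpihbp1* and -0.06 to 0.06 for *Vldlr*, and in the difference from -0.21 to 0.02 for *Vldlr* and -0.26 to 0.03 for *Cd36*. Among levels, *Cd36* in rightward-looping mutants against wild types ran from -0.09 to 0.02 with a wild type left out. Rightward-looping mutants were not left out, except 15_5, chosen after the data were seen, without which *Gpihbp1* in that comparison was -0.14 and *Angptl4* between the mutants -0.02. On the left, *Gpihbp1* ran from -0.01 to 0.39, *Vldlr* from -0.02 to 0.16, *Cd36* from -0.07 to 0.08 and *Fabp3* from -0.48 to 0.07. On the right, *Cd36* ran from -0.21 to 0.01 and *Lipg* from -0.45 to 0.41. Between the mutants, with an inverted-looping one left out, *Angptl4* ran from -0.02 to 0.04, *Cd36* from -0.07 to 0.05, *Fabp3* from -0.13 to 0.29 and *Lipg* from -0.16 to 0.48. *Gpihbp1* had 7 to 224 counts per library, the fewest of the members.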

Other observations

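Genes of hypoxia and glycolysis, which like *Angptl4* respond to low oxygen, had a median log2 fold change of right over left of 0.09 in wild types and -0.05 in inverted-looping mutants, with 0 of 14 called by edgeR in either group (1 and 3 at an unadjusted p under 0.05). The median of their difference was -0.18, with 0 of 14 called by edgeR and 4 at an unadjusted p under 0.05. Their summed level was 3590 to 5860 CPM. Blood markers had a mean log2 ratio of their sum of 0.14 ± 0.65 (SD) in wild types and -0.24 ± 0.81 in inverted-looping mutants, and 0 of 9 were called by edgeR in either group or at an unadjusted p under 0.05.

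In rightward-looping mutants, the left and right samples of embryo 15_5 held 3.06 and 5.39 CPM of *Gpihbp1*, and no other library of that group exceeded 1.28 CPM. In inverted-looping mutants, embryo 10_3 held 10.9 and 11.5 CPM of *Lipg* on the left and right, and embryo 32_2 held 6.98 and 1.73 CPM in the same order.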
